A study of Mus musculus with 2 samples.

Results

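The guides described here are the single guide RNAs of a pooled CRISPR knockout library whose 20 bases hold 3 or more CpG dinucleotides, a C followed directly by a G. They were found by counting CG in the barcode column of the deposited count files, and 5000 of the 79633 guides met the rule, which is 6.28% of the library. Of these, 3973 guides had 3 CpG, 887 had 4, 124 had 5 and 16 had 6. The library was Brie, a genome-wide mouse library delivered by lentivirus, in bone marrow derived macrophages that carried a Cas9 knock-in at the R26 locus and had been immortalised with the J2 retrovirus. Both populations also expressed the Tet3G transactivator and carried a doxycycline-inducible fragment of gasdermin D (GSDMD) tagged with the fluorescent protein tagBFP. One population was left uninduced (0 μg/ml doxycycline) and served as the input, and the other received doxycycline at 0.5 μg/ml over 16 h, after which living cells that showed BFP and kept out propidium iodide were collected as survivors. With 1 library for each population, differences between them rest on single measurements and carry no p-value. The files list guide sequences only, so the labelled cell type could not be checked against marker genes.

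Gasdermin D is the pore-forming protein of pyroptosis, an inflammatory form of cell death that macrophages undergo after inflammasome activation, and its N-terminal fragment inserts into the membrane. CpG is the dinucleotide that vertebrate DNA methyltransferases modify. It is rare in most of a mammalian genome and frequent in CpG islands, which often cover the start of a gene. A guide with several CpG is therefore rich in G and C, and base composition is known to affect both the amplification of DNA and the activity of guides. For this reason the guides were set against guides without any CpG that had the same number of G plus C among their 20 bases.

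The guides with the most CpG show what the rule selects. The first 6 in alphabetical order of the 16 guides with 6 CpG are printed 5′ to 3′, with each CpG in capitals, and their reads follow.
CpG6-1: aCGCGgaCGtaCGacCGCGa
CpG6-2: aCGgCGaCGaCGaCGagcCG
CpG6-3: cCGcCGaCGaCGagcCGtCG
CpG6-4: CGacCGCGacCGcatCGaCG
CpG6-5: CGaggCGCGacagtCGCGCG
CpG6-6: CGagtagCGCGgCGcCGtCG

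CpG6-1 had 845 input reads and 73 survivor reads, and CpG6-2 had 1004 and 25. CpG6-3 had 840 input reads and 5 survivor reads, and CpG6-4 had 420 and 11. CpG6-5 had 1551 input reads and 130 survivor reads, and CpG6-6 had 1501 and 267. All 6 were therefore present in both libraries. Reads were expressed per 1000000 reads of the library (RPM), 1 RPM was added on both sides, and the resulting log2 ratio of survivors over input was set to 0 at the median guide. On that scale the 6 guides ran from -2.62 for CpG6-3 to 0.34 for CpG6-6, and 5 of the 6 lay below the median guide. The median of all 16 guides with 6 CpG was -0.87 (95% order-statistic interval -1.90 to 0.16), so the interval of this small class includes the library median of 0.

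The input held 86266754 reads and the survivors 16269091, with medians of 939 and 126 reads per guide over the whole library. A count of 0 allows up to 0.0348 RPM in the input and 0.184 RPM in the survivors. The guides with 3 or more CpG made up 6.72% of the reads in the input and 6.71% in the survivors, so their share of the pool was nearly the same in both populations. These floors, like the intervals of shares, cover counting error only, since reads amplified by PCR and not tagged per molecule can be copies of each other. All intervals over guides treat guides as independent draws within these 2 libraries and do not measure the spread between libraries.

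In the uninduced input, the guides with 3 or more CpG had a higher median than guides without CpG before base composition was taken into account. Their median was 1023 input reads (95% order-statistic interval 998 to 1048), against 900 (890 to 909) for the 31749 guides without CpG. The members ran from 66 reads at the 5th percentile to 1597 reads at the 75th, and the library's most frequent guide had 9761. Their median number of G plus C was 13, however, and that of the library was 10. A comparison at equal G plus C was possible from 7 to 14 G plus C, where at least 50 guides without CpG existed. This range held 3909 members and 29373 guides without CpG. With those guides weighted to the members' distribution of G plus C, their median was 1043 input reads against 1014 (979 to 1040) for the members, a ratio of 0.972. The mean of log2(input reads + 1) was lower in the members by a difference of -0.14 (95% interval -0.26 to -0.017). Over all numbers of G plus C compared, the distributions differed most at the low end. The 5th percentile was 55 reads in the members and 126 in the guides without CpG, while the 10th percentiles were 230 and 234. At the 25th percentile the members stood higher, with 557 reads against 531. Over all members the 5th percentile was 66 reads, and it was 103.8 without those that hold a motif described below. The ratio of median input reads thus changed direction when G plus C was matched, but the weighted median of 1043 has no interval of its own. Without guides of those motifs the members' interval gave ratios from 0.954 to 1.01, and for guides from 4 CpG from 0.883 to 1.02. Both include equality, so the medians do not resolve the direction. It turned back to a ratio of 1.01 with as few as 5 comparison guides allowed per number of G plus C.

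The members' median was lower at each number from 7 to 12 G plus C and not at the upper end. Intervals were apart only at 11 and 12. With 11 G plus C, 458 members had a median of 799.5 input reads (730 to 887) and 3755 guides without CpG had 1059 (1030 to 1094). With 12, the medians were 939 (875 to 1012) in 889 members and 1072 (1031 to 1119) in 1511 guides without CpG. With 10, they were 875 (727 to 1054) in 197 members and 1015.5 (993 to 1039), and these intervals overlap. With 9, they were 663 (396 to 980) in 48 members and 931 (912 to 949), which overlap as well. Only 3 and 10 members had 7 and 8 G plus C. With 13, the medians were 1100.5 (1041 to 1161) in 1156 members and 1098 (983 to 1203) in 395 guides without CpG. With 14, the members stood higher, at 1128.5 (1062 to 1195), but only 95 guides without CpG were there, with 989 (787 to 1128). Guides of 14 G plus C that held 1 CpG had a median of 1256 (1139 to 1381), those with 2 had 1174 (1123 to 1241), those with 3 had 1177 (1092 to 1237) and those with 4 had 1024 (945 to 1111). The value of the 95 guides without CpG therefore decides the comparison at 14 G plus C. Limited to 10 to 13 G plus C, the ratio of medians was 0.900, and limited to 11 and 12 it was 0.831.

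When all guides were described in 1 fit, input reads were lower at each number of CpG up to 4 than at the number before. This was a least-squares fit of log2(input reads + 1) on the number of CpG, with the number of G plus C as a category, over the whole library. Relative to guides without CpG, the difference was -0.18 (SE over guides 0.016) for 1 CpG and -0.31 (SE 0.023) for 2. It was -0.45 (SE 0.039) for 3, -0.54 (SE 0.077) for 4 and -0.52 (SE 0.16) for 5 or more. On a linear scale, guides with 3 CpG had 0.733 times and guides with 4 CpG 0.687 times the geometric mean reads of guides without CpG. The steps on either side of the rule's threshold were of similar size, so 3 CpG marks no break. Among guides with at least 30 input reads the differences were smaller, -0.23 (SE 0.024) for 3 CpG and -0.28 (SE 0.045) for 4, so part of the gap lay in guides with very few reads. The fit assumes that G plus C acts alike at every number of CpG, which the values at single numbers of G plus C do not bear out throughout. The median rose from guides without CpG to guides with 1 CpG at 12 G plus C (1072 to 1136), at 13 (1098 to 1168) and at 14 (989 to 1256).

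Guides absent from the input were more frequent among the members than in the library, and short motifs, most of which contain a CpG, went with much of this. No input reads were found for 103 of the 5000 members, 2.06% (95% exact binomial interval 1.68 to 2.49%), where 1.60% of all guides had none. At matched G plus C the shares were 2.33% (1.88 to 2.85%) of 3909 members and 1.07% of guides without CpG, a difference of 1.26 percentage points (95% interval 0.441 to 2.08). The motifs searched were TTCGAA anywhere, CGTCTC anywhere on either strand, and a start with TCTC. A start with AGACG was searched too. Of the members 64 carried at least 1 of them, and 49 of these 64 had no input reads. In the library 730 guides, 0.917%, carried one, and 618 of these had no input reads. CGTCTC, or GAGACG when read on the other strand, is the recognition site of the restriction enzyme BsmBI, and TTCGAA is that of BstBI. These motifs had been pointed out by earlier results of these data. All but TCTC hold a CpG, so no guide without CpG can carry them. Leaving out guides with a motif therefore takes absent guides mostly from the members, and a smaller difference was bound to follow. The difference was then 0.310 points (-0.424 to 1.04), and the part of the motifs in the absences was not tested.

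The motif TTCGAA was found in 18 members, and 15 of them had no input reads. The 4 examples below show members with this motif in capitals, the 2 with the most input reads and 2 with none. They were chosen after their values were seen.
Site-1: cgTTCGAAggattgaccgag
Site-2: ctTTCGAAtcgcaaccaccg
Site-3: acgacgaggagTTCGAAtac
Site-4: acgtggaagagTTCGAAcga

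Site-1 and Site-2 had 1 input read each, the highest number of any member with the motif, and Site-3 and Site-4 had 0. None of the 4 had a survivor read. Over the whole library, 179 of 215 guides with TTCGAA had no input reads. Of 9 members with CGTCTC or GAGACG, 8 had none, as had 13 of 14 such guides in the library. Of 20 members that started with AGACG, 14 had none, against 77 of 101 in the library. Of 17 members that started with TCTC, 12 had none, against 350 of 401. Absence was thus frequent among guides with each motif in the library as well as among the members. In the fit over all guides, the share with no input reads was higher by 2.0 points (SE 0.279) for guides with 3 CpG than for guides without CpG. Over guides without the motifs it was higher by 0.492 points (SE 0.198), with the same limit on what leaving them out can show. For log2(input reads + 1) the difference for 3 CpG was -0.28 (SE 0.034) over guides without the motifs, so lower input reads were still measured after these guides had been left out.

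After induction and sorting, the share of members lost from the survivors lay below that of the library, while at equal G plus C the estimates ran from no resolved difference to a higher loss, depending on how guides without CpG were used. Loss means 0 survivor reads in a guide with at least 30 input reads, which 4812 members had. Of these, 415 were lost, 8.62% (95% exact binomial interval 7.85 to 9.45%), where 10.3% of all 76767 such guides were lost. At matched G plus C, 8.87% (7.98 to 9.82%) of 3755 members and 8.13% of guides without CpG were lost. The difference of 0.737 percentage points has an interval from -1.29 to 2.76, which includes 0. With as few as 5 comparison guides allowed per number of G plus C, the difference was 1.85 points with an interval from 0.120 to 3.58. This setting adds 15 G plus C, where 5 guides without CpG, 0 of them lost, stood for 713 kept members. With 0 lost, these 5 guides add nothing to the computed width, so this interval is too narrow to resolve a difference.

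Loss was most frequent in guides with few input reads. Without matching on G plus C, the members' share was close to that of guides without CpG at either end of the read range. Among guides with 30 to 470 input reads, 297 of 812 members were lost, 36.6% (33.3 to 40.0%). In the same range 37.6% (36.4 to 38.9%) of the guides without CpG at 7 to 14 G plus C were lost. Among guides with 1680 to 9761 input reads, 2 of 1110 members were lost, 0.180% (0.0218 to 0.649%), against 0.164% (0.0751 to 0.311%) of the guides without CpG. The guides without CpG were not weighted to the members' G plus C here, and the members had any number of G plus C. In the fit with G plus C alone, which uses guides with any number of CpG to describe G plus C, guides with 3 CpG were lost more often by 2.56 points (95% interval 1.45 to 3.68) than guides without CpG. The differences for 1, 2 and 4 CpG were 1.20, 1.56 and 2.43 points, with intervals above 0, so this fit showed a higher loss where the weighting did not resolve one. With the first base added to the fit, the difference for 3 CpG was 2.86 points (95% interval 1.74 to 3.98). With 20 bins of input reads added as well, it was 0.316 points (95% interval -0.628 to 1.26). The interval then included 0.

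The members that were lost in spite of many input reads are few. Of 2561 members with 1000 or more input reads, 19 had no survivor reads, 0.742%, and the share over all guides with 1000 or more input reads was 0.886%. The 3 with the most input reads are shown, again with CpG in capitals.
Lost-1: agtgcaCGcCGaagtcCGag
Lost-2: acacCGgCGaCGagtCGctg
Lost-3: gaatccaCGggtcctcCGCG

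Lost-1 had 1840 input reads, Lost-2 had 1839 and Lost-3 had 1560, and each had 0 survivor reads. Their log2 ratios of -4.06, -4.06 and -3.84 depend on the added 1 RPM and are not the size of a measured decrease. These 3 guides were named for their values, and the counts of 0 have no replicate.

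Among the kept members, the ratio of survivor to input reads was centred near that of the library. The median log2 ratio of 4812 members was 0.0061 (95% order-statistic interval -0.043 to 0.058), with an SD over guides of 1.23. At matched G plus C it was 0.035 (-0.028 to 0.091) in 3755 members and 0.15 in guides without CpG, a difference of -0.12. The difference of the means was -0.045 with an interval from -0.14 to 0.050, so the median and the mean gave gaps of unlike size. Guides starting with G have low ratios in these libraries. At matched G plus C, 27.9% of the members and 48.0% of the guides without CpG started with G. With the first base added to G plus C in the fit over all guides, the mean difference was -0.099 (SE 0.024) for 3 CpG, -0.17 (SE 0.048) for 4 and -0.34 (SE 0.11) for 5 or more. With G plus C alone these differences were -0.022 (SE 0.025), -0.046 (SE 0.049) and -0.19 (SE 0.11), each within 2 SE of 0.

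Few members passed 4-fold between the populations, and their share was near that of all guides. At least 4-fold up in the survivors were 134 of 4812 members, 2.78% (2.34 to 3.29%), where 3.04% of all guides were. At least 4-fold down were 362 members, 7.52% (6.79 to 8.30%), where 8.17% of all guides were, and 151 of the 362 had no survivor reads. The rest of the 415 lost members had too few input reads to pass 4-fold down with 1 RPM added. Both shares of the members lie near the background. The counts depended on scaling: with TMM factors of edgeR and no centring, 75 members were up and 532 down, where 1.77% of all guides were up and 11.6% down. With the size factors of DESeq2 89 members were up and 518 down, where 2.0% and 11.2% of all guides were. With a pseudocount of 5 RPM 21 were up and 8 down, and the share over all guides was not computed for this setting.

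The members at the ends of the scale were the following, chosen for their ratios, with CpG in capitals.
Up-1: ctggCGCGgtttgCGaaccc
Up-2: atcCGCGggatCGgtgCGca
Down-1: agaagaaaatCGCGgccCGg
Many-1: aggatCGCGagggcttcaCG
Many-2: taagCGgCGtcatgtCGccc
Few-1: aCGatgctgagtaCGccaCG
Few-2: CGtCGgtCGaggtgtagCGt

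Up-1 rose from 166 input reads to 434 survivor reads although the survivor library was the smaller one, for a log2 ratio of 3.66. Up-2 had 100 input reads and 252 survivor reads, for a log2 ratio of 3.35. Down-1 had 2324 input reads and 3 survivor reads, for a log2 ratio of -4.14, and it was lower than Lost-1 because it started from more reads. Many-1 and Many-2 had the most input reads of all members, 7179 and 5961. Many-1 had 794 survivor reads (log2 ratio -0.34) and Many-2 had 2011 (1.25), so the most frequent members moved in opposite directions. Few-1 and Few-2 stood just above the read minimum with 31 input reads each and had 0 survivor reads. Their log2 ratio of -0.024 shows that a guide of so few reads cannot pass 4-fold down on this scale. The limit reaches higher, as a member with 353 input reads and 0 survivor reads stood at -1.93, still short of 4-fold.

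The ratio differed with the place of the CpG in the guide, and it was lowest with a CpG at positions 2 and 3, counted from the 5′ end. The 715 kept members with a CpG at positions 2 and 3 had a median log2 ratio of -0.37 (95% order-statistic interval -0.47 to -0.26). The 4097 kept members without one there had 0.081 (0.035 to 0.15), and these intervals do not overlap. The difference was -0.46. Over the 18 other places where a CpG can start, the medians of the members with a CpG there ran from -0.12 at position 15 to 0.18 at position 3. The place was picked as the lowest in these data, so the lack of overlap above is no support for the pattern. The guides with 1 or 2 CpG, which are no members, give a second look at it, but in the same 2 libraries. Among them, 1529 with a CpG at positions 2 and 3 had a median of -0.33 (-0.42 to -0.26) and 39723 without one there had 0.036 (0.019 to 0.053).

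Over all first bases, members with only the C or only the G of this pair did not have ratios as low. Members with C at position 2 but no CpG there had a median of -0.0022 (-0.096 to 0.079), and members with G at position 3 but no CpG there had 0.10 (-0.0045 to 0.20). Medians were lower with the CpG for each of the 4 first bases, with overlapping intervals for A and T. Members starting with G had -0.79 (-0.98 to -0.56) with the CpG at positions 2 and 3 and -0.25 (-0.32 to -0.16) without it. Those starting with C had -0.33 (-0.45 to -0.089) with it and 0.25 (0.19 to 0.34) without it. Those starting with A had -0.034 (-0.32 to 0.18) and 0.14 (-0.0022 to 0.25), and those starting with T had 0.13 (-0.28 to 0.40) and 0.41 (0.27 to 0.57). Among members starting with T, those with C at position 2 but no CpG there were no higher than those with the CpG, at 0.071 (-0.070 to 0.37). In guides with 1 or 2 CpG the corresponding medians for a first G were -0.74 (-0.88 to -0.65) and -0.25 (-0.28 to -0.23). The loss of members with a CpG at positions 2 and 3 was 9.65% (7.59 to 12.1%) against 8.45% (7.61 to 9.34%) for the others. These intervals overlap, so a difference in loss was not resolved.

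Examples are the members with a CpG at positions 2 and 3 that had the most input reads for each first base, chosen after the pattern was seen.
A-start: aCGgcagccCGaCGtccCGt
C-start: cCGgttccagttCGcccaCG
G-start: gCGggcctgaaagCGctCGg
T-start: tCGacagCGtgttCGcagCG

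The A-start guide had 3125 input reads and 101 survivor reads, for a log2 ratio of -1.95. The C-start guide had 5940 and 75, for a ratio of -3.22. The G-start guide had 3697 and 544, for a ratio of 0.070, and the T-start guide had 5008 and 549, for a ratio of -0.35. The G-start guide shows that single guides vary far more than the medians differ.

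The CpG that the rule counts were spread unevenly over the guide. A CpG at positions 19 and 20, next to the protospacer-adjacent motif, was present in 41.9% of the members, in 13.9% of all guides and in 17.4% of the guides with 1 CpG. The last base, which is part of that CpG, was G in 73.4% of the members against 55.2% of the library. With G plus C matched, 70.7% of the members and 56.7% of the guides without CpG ended in G. The place of the CpG at the 3′ end did not go with a difference in ratio, as the median of the 2037 kept members with a CpG at positions 19 and 20 was 0.0023 (-0.061 to 0.092). Runs of 4 G were rarer in the members at matched G plus C, 1.41% against 13.2% of the guides without CpG. An end in GG was found in 14.3% of the members and 18.5% of the guides without CpG at matched G plus C, and an end in TT in 0.384% and 0.139%.

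Tandem CpG, the stretch CGCG, was present in 1561 members, or 31.2%. Their median input was 1036 reads (979 to 1080) against 1015 (983 to 1044) in the members without it. Loss was 8.57% (7.20 to 10.1%) against 8.65% (7.71 to 9.66%), and the intervals overlap in both measures. The 1683 members that also held 3 or more GpC, the same bases in the opposite order, had 1088 input reads (1034 to 1142) against 984 (951 to 1020) for the other members, without matching on G plus C. The folding energy that RNAfold computes for the guide alone had a median of -2.3 kcal/mol in the members and -0.7 in the library. With G plus C matched, the mean was -2.31 kcal/mol in the members and -2.84 in the guides without CpG. The members' predicted folds were thus weaker than those of guides without CpG at equal G plus C, though stronger than the library's median. Members at -4 kcal/mol or lower had a median log2 ratio of -0.10 (-0.17 to -0.034), and members at -1 kcal/mol or higher had 0.057 (-0.037 to 0.17). These ratios were not matched on G plus C.

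By first base, the members' medians stood in the same order as those of guides without CpG. Members starting with G had a median log2 ratio of -0.33 (-0.40 to -0.26), those starting with A 0.091 (-0.013 to 0.19), those starting with C 0.19 (0.11 to 0.24) and those starting with T 0.37 (0.24 to 0.49). The guides without CpG at 7 to 14 G plus C had -0.28, 0.014, 0.17 and 0.21 in the same order of bases. The value for T lay below the members' interval, and these guides were not weighted to the members' G plus C. Of the members starting with T, 5.66% were at least 4-fold up (4.11 to 7.57%), and of those starting with G 0.930% were (0.510 to 1.56%). Among the guides without CpG the shares were 4.25% and 1.40%, inside those intervals.

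Some members share most of their sequence. Sharing 14 or more bases end to end on either strand, 49 members overlapped another member in 37 pairs and 19 groups, and 87 members overlapped any guide of the library. These 87 members had a median of 665 input reads (294 to 954), below the 1023 of all members, and 10 of them had no input reads. Of 2 largest groups of 6 members each, the one that comes earlier in the alphabet is shown, with CpG in capitals.
Group-1: cCGgatctCGCGcagCGcca
Group-2: cCGtggCGctgCGCGagatc
Group-3: ctCGCGcagCGccaCGgtgc
Group-4: gcagCGccaCGgtgcCGgga
Group-5: gcagCGccaCGgtgcCGggc
Group-6: gccCGgcacCGtggCGctgc

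Group-1 had 8 input reads, Group-2 had 9, Group-3 and Group-4 had 0, Group-5 had 1 and Group-6 had 101. None of the 6 had a survivor read, and none held a motif listed above. In the other group of 6 the input reads ran from 0 to 1668 and the survivor reads summed to 642. In 19 of the pairs both guides reached 30 input reads. Of these 19 pairs, 4 had 1 guide lost and the other present, and no pair had both lost. The log2 ratios of the guides in these 19 pairs differed by a median of 1.60.

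A few members could be placed in the genome. The RefSeq promoter windows of build GRCm38.p6 reach from 250 bases before to 50 bases after a gene's start, and 98 members matched a window exactly with an NGG beside the match. The count files name no build. Of all guides, 637 or 0.800% matched. At matched G plus C the shares were 1.79% of members and 1.21% of guides without CpG, a difference of 0.579 points (-0.267 to 1.43). Of the 98, 95 lay in the windows of 1 gene at 1 position, and 5 of these lay after the start site. A window names the gene whose start is near and not the gene a guide was designed against. The windows' members had a median of 937 input reads (719 to 1084) and a loss of 12.1% (6.19 to 20.6%), with intervals that include the values of all members.

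The 5 placed members with 5 or more CpG are given with their positions, in capitals as above.
Pank2: CGagtagCGCGgCGcCGtCG
Dmrtb1: tgCGCGacCGttcctcCGCG
Gm36428: caCGgcCGaCGccaCGagCG
Sh3d21: CGactaCGgCGCGgaaagCG
Tsc2: cCGCGCGactaggatCGCGt

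The guide in the window of Pank2, which encodes a kinase of coenzyme A synthesis, is CpG6-6 and lies at chr2:131262690-131262709 on the plus strand, 139 bases before the start site. The guide in the window of Dmrtb1, a DM-domain gene, lies at chr4:107683710-107683729 on the minus strand, 130 bases before the start. It had 3349 input reads and 514 survivor reads, for a log2 ratio of 0.13. The guide near Gm36428 lies at chr6:134983829-134983848 on the minus strand, 193 bases before the start, and had 2383 input reads and 1653 survivor reads, a ratio of 2.26 and the only one of the 5 past 4-fold. The guide near Sh3d21 lies at chr4:126162804-126162823 on the plus strand, 148 bases before the start, and had 1063 and 497 reads, a ratio of 1.66. The guide near Tsc2, whose product tuberin restrains mTORC1, lies at chr17:24632790-24632809 on the plus strand, 172 bases before the start. It had 1470 input reads and 222 survivor reads, for a ratio of 0.12, close to the median guide. The window of Pank2 also held a member with 4 CpG, which had 621 input reads and 36 survivor reads, a ratio of -0.93. With so few guides per window and 1 library per population, none of these values describes the effect of a gene.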

How the data were processed

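For each of 2 libraries the authors deposited 1 raw count of reads, not normalized, for every guide barcode of 20 bases, per the file headers. Barcodes were amplified by PCR from genomic DNA and sequenced on an Illumina instrument, per the labels' protocols. The sources used here name neither the counting tool nor what was combined under the headers' names.

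Counts were joined by barcode. Guides with fewer than 30 input reads were left out of losses and ratios. The median log2 ratio before centring was -0.42. Comparison guides were weighted to the members' numbers of G plus C. Intervals are at 95%: exact Clopper-Pearson for shares, order statistics for medians, and normal approximations for differences. With 1 library per group no model with replicates was fitted, and edgeR and DESeq2 gave scaling factors only. The least-squares fit used robust SE. Whether the weighting fully corrects for G plus C was not tested. The members, lists and alternatives were chosen with earlier results of these data known, and the minimum of 50 comparison guides, the fit, the positions and the promoter matches after the values were seen. Guides named are those with the most CpG, the most and fewest reads, the extreme ratios, the losses with most reads, survivor reads without input reads, and the largest overlapping group; exceptions are marked. Guides were not paired with target genes, and non-targeting guides were not identified. Python 3.11.15, numpy 2.4.6, pandas 2.3.3, scipy 1.17.1, RNAfold 2.7.2, R 4.3.3, edgeR 4.0.16 and DESeq2 1.42.0 were used.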

Additional observations from a re-analysis of the deposited data

Results flagged for a closer look

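One member had reads in the survivors and none in the input, and so lies outside the ratios. This guide, agaCGggaggcaCGactgCG, had 0 input reads and 37 survivor reads, above the 3 reads that a count of 0 allows. It starts with AGACG, one of the motifs listed for absence from the input. The other 102 members without input reads had no survivor reads either.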

How the results depend on the processing

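No paired analysis was possible because neither population had more than 1 library, which also left no replicate to drop. Of 93 alternatives, 56 left a value inside its interval or moved a count by less than 1.5 times. The interval used here was that of the members' value, with the comparison value held fixed. For loss it ran from -0.153 to 1.69 points, and for no input reads from 0.811 to 1.78 points. Both are narrower than the intervals of the differences given in the results above, so a value said to have moved can still lie inside those. Those on 10 to 13 or 11 to 12 G plus C, at least 5 comparison guides, folding energy and positions 2 and 3 were added after seeing the data, and the causes of the changes below were not tested unless stated.

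The ratio of median input reads, 0.972, reversed to 1.14 with no matching on G plus C and to 1.01 with at least 5 comparison guides, which lets 5 guides stand for 15 G plus C. It moved to 0.911 with G and C matched separately, 0.937 with the first base, 0.900 and 0.831 at 10 to 13 and 11 to 12 G plus C, and 0.799 with folding energy. The share with no input reads, 1.26 points higher in members, moved to 0.762 unmatched, 1.79 with G and C separately, 0.310 without the motifs and 2.12 from 4 CpG. The values 0.762 and 1.79 lie inside the interval of the difference, 0.441 to 2.08, and 0.310 and 2.12 lie outside it. The share lost, 0.737 points, moved to -2.37 unmatched, 1.85 with at least 5 comparison guides and 1.83 with folding energy. The values 1.85 and 1.83 lie inside the interval of the difference, -1.29 to 2.76, and -2.37 lies outside it. The median log2 ratio, -0.12, reversed to 0.032 unmatched and moved to -0.059 with G and C separately, -0.049 when 5 RPM was added, -0.21 with the first base, -0.20 from 4 CpG, -0.011 at 11 to 12 G plus C, -0.18 with at least 5 comparison guides and -0.0057 with folding energy. Guides with 3 or more GpC and no CpG were set against guides with neither. They gave 1.15 for input reads, -1.74 points for no input reads, -2.62 points for loss and -0.10 for the median log2 ratio. The last was close to the value for CpG, but its interval over 657 guides, -0.26 to 0.057, includes 0.

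The 134 members up became 86 from 300 input reads, 21 with a pseudocount of 5 RPM, 75 and 89 with TMM and DESeq2 scaling, and 525 and 27 from 2 and from 4 CpG, which changes the set. The 362 down became 810 and 8 with pseudocounts of 0.1 and 5 RPM, and 1348 and 80 from 2 and from 4 CpG. The sets from 2 and from 4 CpG held 17388 and 991 kept guides, where 3.04% of all guides were up and 8.17% down. Shares over all guides were not computed for the pseudocounts and the minimum of 300 reads, so those counts do not set the members apart. The difference for a CpG at positions 2 and 3, -0.46, moved to -0.56 and -0.28 with pseudocounts of 0.1 and 5 RPM. It stayed negative under all 10 alternatives run. The largest share of losses was in guides of few input reads. A fit with bins of input reads is given above, but whether read depth was a cause of the losses was not tested.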
